A study of Mus musculus with 8 samples.

Results

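The solute carriers are a large superfamily of membrane proteins that move small molecules across cell membranes. They were described here in alveolar macrophages with and without Tfam, the factor that packages mitochondrial DNA and drives its transcription. The set took every listed gene whose symbol begins with Slc and a digit. It left out the families Slc1, Slc2, Slc3, Slc6, Slc7, Slc16 and Slc38 (transporters of glutamate, glucose, other amino acids and monocarboxylates), the iron carriers Slc11 and Slc40, and the mitochondrial carriers of Slc25. This gave 116 of the 12367 genes in the table, all of which passed the filter on low values, and they were grouped into 15 classes by cargo. The symbol alone made the choice, so 3 members are not transporters but adaptor or scaffold proteins (Slc4a1ap, Slc9a3r1 and Slc9a3r2). Some members, such as Slc8b1 and Slc30a9, are carriers known to act in mitochondria in spite of the family they belong to, and no full list of these was made.

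The experimental mice (KO) carried floxed Tfam alleles on both chromosomes and a Cre recombinase driven by CD11c. The control mice (WT) carried the same floxed alleles without Cre, and all mice were untreated and 3 weeks old. No group had the Cre alone, so that effects of the Cre and of the loss of Tfam cannot be told apart, and CD11c is also used by dendritic cells. Lung cells enriched on CD11c beads were sorted as CD45+ F4/80+ CD11c+ cells, and each of the 4 libraries of polyadenylated RNA per genotype came from a pool of 3 to 5 male and/or female mice.

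Solute carriers work as facilitators, exchangers or symporters, and most draw on the gradients of sodium, protons or chloride that pumps maintain. ZIP proteins (Slc39) bring zinc into the cytosol and ZnT proteins (Slc30) take it out or into vesicles, and sodium/proton exchangers (Slc9) set the pH of the cytosol or of endosomes and the Golgi. Alveolar macrophages take up and degrade surfactant and particles, so that export carriers of their lysosomes return metals, amino acids, sugars and nucleosides to the cytosol.

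By the spacing of the deposited values, the libraries held 20243772 to 30263201 reads in KO and 24776683 to 29161957 in WT. Without the 0.5 read that each deposited value includes, 3 reads corresponded to 0.102 to 0.152 in KO and 0.0999 to 0.118 in WT. This floor covers counting error only. The depths differed by less than the spread between libraries (two-sided exact permutation test, p = 0.343). Tfam had 4.52, 5.08, 4.29 and 3.52 in KO pools 1 to 4, against 26.1, 35.2, 30.3 and 29.7 in WT pools 1 to 4, so that every KO pool lay below every WT pool (log2 fold change -2.55, SE 0.117, limma adjusted p = 1.02e-06). Gene totals do not separate exons, and the deleted part was not read apart. Of the 12 markers of alveolar macrophages fixed for the check, 12 were in the table, of which 2 were higher and 5 lower in KO. The lower ones were Ear1 (log2 fold change -2.81), Siglecf (-1.36), Krt79 (-1.08), Adgre1 (-0.65) and Ptprc (-0.42). The higher ones were Itgax (0.90) and Car4 (0.89). The summed signal was 34134 to 39564 in KO and 32288 to 34439 in WT. Most of it was Chil3, which was not called (means of 27808 in KO and 23528 in WT), so the sum says little about the other markers. Of 8 markers of interstitial macrophages and monocytes 6 were in the table and 6 were higher in KO, with sums of 69.3 to 204.7 in KO and 36.2 to 58.5 in WT. Of 5 dendritic cell markers, 1 was higher in KO (Clec9a, 2.74 in KO and 1.3 in WT). Hopx, from the list for alveolar type 1 epithelium, was higher in KO (log2 fold change 0.57), and the neutrophil marker S100a9 was lower (-1.34). No listed marker of B cells, endothelium, fibroblasts or erythroid cells was called. Markers of eosinophils (4) and of T and NK cells (5) were not among the listed genes. Sums of 5 markers of alveolar type 2 epithelium were 39.3 to 94.3 in KO and 25.9 to 119.1 in WT. The part of these other cells in the results below was not tested. On the second principal component, KO pool 4 and WT pool 4 stood apart from the other libraries (-14.1 and -25.6).

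Values are the authors' normalised signal, on a scale close to reads per 1e+06 reads, and ± marks the SD over 4 pools. Fold changes are KO over WT after adding 1 to each value and taking log2, which makes changes of low genes look smaller, and a gene was called higher or lower at a limma p under 0.05 after Benjamini-Hochberg adjustment over all 12163 genes tested. The p-values measure the spread between these pools of mice.

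The promoters of 5 carriers that rose are shown first. They include Slc39a2, which had the highest log2 fold change, and the copper carriers Slc31a2 and Slc31a1, 62315 bases apart on chromosome 4. Also shown are Slc22a4 and Slc22a5, which lie on either side of a relative that was not called. Sequences and start sites are RefSeq's on GRCm38.p6, read on the strand of the gene, with 250 bases before the start site and 20 from it. Capitals mark matches on either strand to the E-box CACGTG, the antioxidant response element core TGACNNNGC or the pattern TGCNCNC. That pattern, called the metal core here, is looser than the core of metal response elements, so its matches are not all such elements. The CLEAR core TCACGTGA, which contains the E-box, and the C/EBP-ATF element TGATGNAAT were searched too and had no match in these 5.

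Slc39a2, chr14:51893360-51893629, plus strand: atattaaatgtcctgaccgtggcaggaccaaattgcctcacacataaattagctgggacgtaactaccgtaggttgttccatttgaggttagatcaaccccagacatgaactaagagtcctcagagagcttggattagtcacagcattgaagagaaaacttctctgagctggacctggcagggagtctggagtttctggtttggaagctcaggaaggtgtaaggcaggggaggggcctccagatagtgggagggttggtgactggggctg

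Slc22a4, chr11:54028085-54028354, minus strand: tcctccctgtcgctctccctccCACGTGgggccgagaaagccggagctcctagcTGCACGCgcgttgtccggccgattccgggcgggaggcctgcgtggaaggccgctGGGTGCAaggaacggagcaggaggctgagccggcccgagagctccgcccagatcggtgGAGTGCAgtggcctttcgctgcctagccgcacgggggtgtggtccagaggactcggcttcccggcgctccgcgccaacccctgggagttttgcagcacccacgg

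Slc22a5, chr11:53891684-53891953, minus strand: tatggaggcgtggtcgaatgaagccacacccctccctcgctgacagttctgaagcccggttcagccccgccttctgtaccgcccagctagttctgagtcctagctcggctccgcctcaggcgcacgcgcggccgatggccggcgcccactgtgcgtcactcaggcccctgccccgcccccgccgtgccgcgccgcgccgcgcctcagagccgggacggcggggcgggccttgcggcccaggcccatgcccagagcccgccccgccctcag

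Slc31a2, chr4:62286179-62286448, plus strand: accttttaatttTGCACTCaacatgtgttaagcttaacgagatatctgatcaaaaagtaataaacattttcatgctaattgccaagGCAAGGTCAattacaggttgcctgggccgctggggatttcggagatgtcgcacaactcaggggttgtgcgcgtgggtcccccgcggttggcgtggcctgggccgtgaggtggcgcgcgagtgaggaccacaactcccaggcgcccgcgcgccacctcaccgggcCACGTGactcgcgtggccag

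Slc31a1, chr4:62360451-62360720, plus strand: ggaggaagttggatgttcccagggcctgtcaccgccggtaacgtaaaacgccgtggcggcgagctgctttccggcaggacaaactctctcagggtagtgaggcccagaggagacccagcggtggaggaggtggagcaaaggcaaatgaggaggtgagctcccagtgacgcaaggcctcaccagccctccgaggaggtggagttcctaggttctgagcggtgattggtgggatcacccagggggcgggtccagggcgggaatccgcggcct

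The stretch of Slc22a4 held the E-box once, 228 bases before the start, and the metal core 3 times, with 1 more at 26 bases after the start, which is not printed. Slc31a2 held an E-box at the start itself, an antioxidant core 164 bases before it and a metal core 238 bases before it. Slc39a2, Slc22a5 and Slc31a1 held none of these letters in the window of 300 bases that was searched. Across the carriers, 91 of 116 had a RefSeq promoter in the table. Of these, 19.8% held the E-box, 23.1% the antioxidant core, 69.2% the metal core, 3.3% the CLEAR core and 0% the C/EBP-ATF element. The shares over all 27025 genes with a promoter of the same length were 8.09%, 14.0%, 53.6%, 1.12% and 1.08%, and over tested genes they were 12.0%, 17.2%, 63.3%, 2.27% and 0.454%. The metal core was found for 55.6% of the carriers higher in KO that had a promoter (18 matched) and for 86.7% of those lower (15 matched). All these shares are of genes. A gene counted if any of its windows held the letters, and some genes, such as Slc29a1, have several windows. Slc9a2 and Slc52a3 had no entry. These matches are letters in a window and no test was made of them.

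Of the 116 carriers, 22 were higher in KO, 21 were lower and 73 were not called. Over all genes tested, 38.7% were called, 18.7% higher and 20.0% lower, so that the carriers' 37.1%, 19% and 18.1% were close to the background. The median log2 fold change was 0.05 over the carriers, against -0.01 over all genes, and the median absolute change was 0.20 against 0.21. The 10th and 90th percentiles were -0.42 and 0.58 over the carriers, against -0.46 and 0.51 over all genes. Calls with a change of at least 1 log2 unit were 2 higher (Slc39a2 and Slc22a4) and 2 lower (Slc9a2 and Slc52a3), which is 3.45% of the carriers, against 5.64% of all genes. The KO and WT pools did not overlap in 42 carriers (36.2%), against 37.7% of all genes. In bulk RNA, a change in the number of cells that use a carrier and a change in its RNA per cell cannot be told apart.

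**Figure D1:**
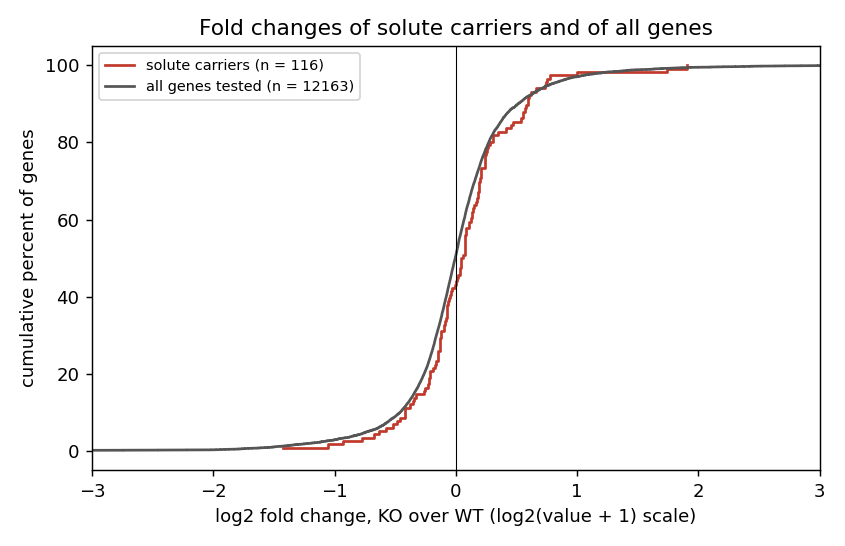
Cumulative percent of genes (vertical axis) by log2 fold change, KO over WT (horizontal axis), for the 116 carriers and for the 12163 genes tested. The curves run close together, with medians of 0.05 and -0.01.

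Of the 43 calls, 33 (17 higher and 16 lower) were made in every fit that left out 1 library. The other 10 were lost in at least 1 such fit and are named as such where they are described. With the replicate number of the pools as a block, 31 carriers were higher and 23 lower (46.6%), against 46.7% of all genes, and the 12 carriers that it called and the unblocked fit did not are given with their class. The summed signal of all 116 carriers was 5695 to 5916 in KO and 5293 to 5476 in WT, or 0.553% to 0.575% and 0.549% to 0.560% of the column total.

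**Figure D2:**
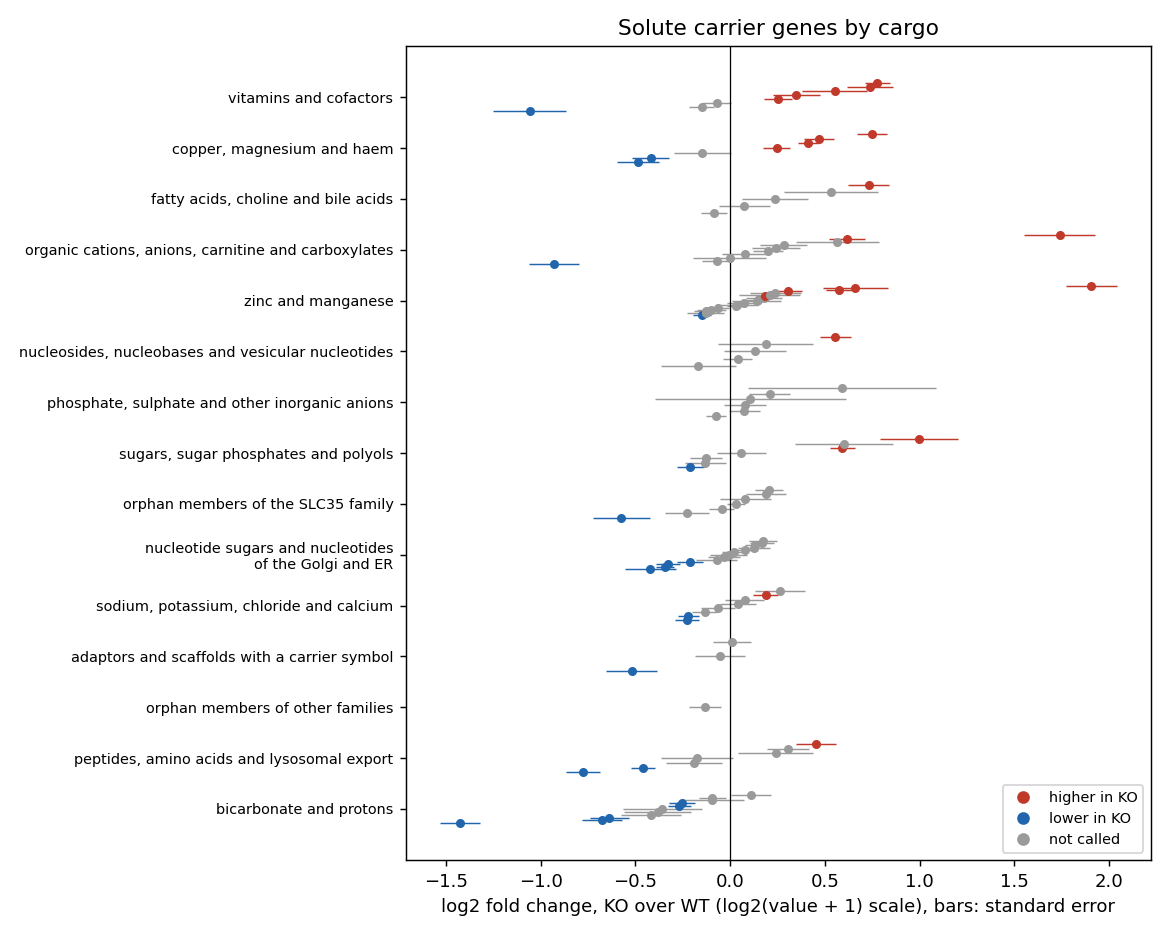
Log2 fold change of every carrier, KO over WT, by cargo class; each point is 1 gene, its bar is the standard error, and its color gives the call. Several classes hold calls of both signs, among them the copper, magnesium and haem carriers and the vitamin carriers. The carriers of bicarbonate and protons lie mostly below 0.

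Zinc carriers held the highest log2 fold change, although by the ratio of the means Slc22a4, described below, was higher. Slc39a2, a ZIP protein that imports zinc at the cell surface, had 407, 469, 454 and 320 in KO pools 1 to 4, against 110, 108, 128 and 89.8 in WT pools 1 to 4. Even the lowest KO pool, pool 4, lay far above the highest WT pool. The ratio of the means was 3.79 and the log2 fold change was 1.91 (SE 0.134, adjusted p = 7.75e-06). The gene lies on chromosome 14 from 51892889 to 51896745 (GRCm38), and 4.38% of its exon length is shared with Mettl17 on the same strand. Per kilobase of merged exons it averaged 119.6 in KO, the highest of the carriers, against 31.6 in WT.

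The other ZIP genes that rose did so by less. Slc39a6, an importer of zinc at the cell surface, had 48.8, 53.5, 51.4 and 51.3 in KO pools 1 to 4, against 30.6, 33.6, 35.2 and 37.3 in WT pools 1 to 4 (log2 fold change 0.57, adjusted p = 0.000159). Slc39a14, which carries manganese and iron as well as zinc, averaged 62.6 ± 5.82 in KO and 50.3 ± 2.5 in WT (log2 fold change 0.31, adjusted p = 0.0085). Slc39a1, the ZIP protein found in most cells, averaged 182 ± 4.43 in KO and 160.0 ± 6.33 in WT (log2 fold change 0.19, adjusted p = 0.0113). In all 3 genes every KO pool lay above every WT pool. Of the 12 ZIP genes, 4 rose, 0 fell by limma (0 also at an unadjusted p under 0.05) and 10 had a positive fold change, with a median of 0.16. In the whole class of 18 zinc and manganese carriers, 27.8% rose and 5.56% fell, against 18.7% and 20.0% of all genes.

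Of the 6 ZnT genes, 1 rose and 1 fell. Slc30a4, which loads zinc into vesicles, had 5.11, 2.94, 4.04 and 3.75 in KO pools 1 to 4, against 2.58, 1.96, 2.5 and 1.48 in WT pools 1 to 4. The groups stood apart by a small margin, with the lowest KO pool just above the highest WT pool (log2 fold change 0.66, SE 0.17, adjusted p = 0.0123, with 0.33 at a pseudocount of 5 and 0.90 with none added). Slc30a5, a zinc carrier of the early secretory pathway, averaged 67 ± 0.901 in KO and 74.5 ± 2.52 in WT (log2 fold change -0.15, adjusted p = 0.0309). That call was lost without KO pool 1, 2 or 3 or WT pool 2 or 3 (adjusted p = 0.0662 to 0.0945), and under median centring (adjusted p = 0.0566). The 12 zinc and manganese carriers not called had log2 fold changes of -0.13 to 0.24. Among them were Slc39a10 (110.4 ± 18.4 in KO and 107 ± 9.79 in WT), Slc39a7 and Slc39a9. For Slc39a7, 80.7% of the exon length is shared with another gene model on the same strand (Gm20427), so that its reads are uncertain. The mitochondrial Slc30a9 averaged 60.2 in KO and 56.8 in WT, and was called only in the fits without KO pool 4 (adjusted p = 0.0354) or without pool 4 of both groups.

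In the class of copper, magnesium and haem carriers, 4 of 7 members rose and 2 fell, both of the latter magnesium carriers. These are 57.1% and 28.6%, against 18.7% and 20.0% of all genes. Slc31a2, a copper transporter of endosomes and lysosomes, had 102, 131, 108 and 122 in KO pools 1 to 4, against 70.4, 64.3, 66.8 and 71.6 in WT pools 1 to 4. Every KO pool lay well above the WT pools (log2 fold change 0.75, SE 0.0808, adjusted p = 8.59e-05). Slc31a1, the copper importer of the cell surface, averaged 43.5 ± 1.97 in KO and 31.2 ± 3.19 in WT (log2 fold change 0.47, adjusted p = 0.00122). Both genes of the family thus rose, and they lie 62315 bases apart on chromosome 4.

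Slc49a4, a lysosomal protein of the family that holds the FLVCR exporters, averaged 126 ± 2.41 in KO and 94.8 ± 6.31 in WT (log2 fold change 0.41, adjusted p = 0.000303). It is counted among the rises of this class by its family, and no transport of copper, magnesium or haem by it is claimed here. Slc48a1, which moves haem from the phagolysosome to the cytosol, averaged 143 ± 12 in KO and 120.2 ± 7.28 in WT (log2 fold change 0.25, adjusted p = 0.0231), with overlap between the pools. Its call was lost without KO pool 1 or 3 or WT pool 2 or 4 (adjusted p = 0.0515 to 0.0653). Of the 3 magnesium carriers of Slc41, Slc41a1, a sodium/magnesium exchanger, averaged 27.4 ± 3.06 in KO and 38.8 ± 5.53 in WT (log2 fold change -0.48, adjusted p = 0.00641). Slc41a3 averaged 14.4 ± 1.53 in KO and 19.6 ± 2 in WT (log2 fold change -0.42, adjusted p = 0.00741). Slc41a2 was not called (log2 fold change -0.15).

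Of 11 listed partners in metal handling, 6 rose (54.5%) and 1 fell (9.09%), against 18.7% and 20.0% of all genes. The metallothionein Mt2, which binds zinc and copper, averaged 143 ± 23 in KO and 54.6 ± 4.58 in WT (log2 fold change 1.36, adjusted p = 1.83e-05). The metallothionein Mt1 averaged 228 in KO and 173 in WT (log2 fold change 0.39, adjusted p = 0.028), with overlap between the pools. Hmox1, which breaks down haem, averaged 329 in KO and 153 in WT (log2 fold change 1.08). Blvrb, a biliverdin reductase, averaged 36.4 in KO and 22.4 in WT (0.68). The partner that fell was Blvra, the other biliverdin reductase (144.9 in KO and 178.9 in WT, -0.30). Cox17, a copper chaperone, averaged 33.1 in KO and 22.6 in WT (0.53). Of transporters of the same cargos that carry no Slc symbol, 32 were tested, 6 rose (18.8%) and 8 fell (25%), near the shares of all genes. They included the haem exporter Flvcr1 (50.9 in KO and 29.6 in WT, log2 fold change 0.76) and the copper pump Atp7a (56.2 in KO and 76.3 in WT, -0.43). Cnnm4, a magnesium transporter, had 14.9 in KO and 19.8 in WT (-0.39). The list and its count of rises also include Tapt1, a membrane protein for which no transport of these cargos is claimed here (157 in KO and 85.6 in WT, 0.86).

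Vitamin and cofactor carriers had 5 of 8 members higher (62.5%) and 1 lower (12.5%) in KO, against 18.7% and 20.0% of all genes. Slc5a6, the sodium-dependent carrier of biotin and pantothenate, had 31.3, 32.3, 33.1 and 29.6 in KO pools 1 to 4, against 16.7, 18.4, 19 and 18 in WT pools 1 to 4. The KO pools were close to each other and all above WT (log2 fold change 0.78, SE 0.0659, adjusted p = 2.36e-05). Of its exon length, 9.92% is shared with Atraid on the other strand. Slc19a2, a thiamine carrier, had 18.1, 20.9, 14.6 and 21 in KO pools 1 to 4, against 10.2, 10.5, 12.2 and 9.81 in WT pools 1 to 4 (log2 fold change 0.74, SE 0.121, adjusted p = 0.00104). Again no WT pool reached a KO pool.

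Slc52a3, which imports riboflavin, was the vitamin carrier that fell. It had 20.7, 23.5, 22.4 and 34.3 in KO pools 1 to 4, against 43.5, 53, 44.4 and 74.9 in WT pools 1 to 4. Pool 4 was the highest in both genotypes, and the groups did not overlap (log2 fold change -1.06, SE 0.194, adjusted p = 0.00203). The gene lies on chromosome 2 from 151996511 to 152009258. The other riboflavin carrier listed, Slc52a2, averaged 14 ± 1.16 in KO and 14.8 ± 0.658 in WT and was not called (log2 fold change -0.07).

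The remaining calls among vitamin carriers were less stable. Slc19a1, the reduced folate carrier, had 16.8, 13.5, 16.6 and 9.08 in KO pools 1 to 4, against 9.01, 9.74, 9.47 and 7.75 in WT pools 1 to 4, and KO pool 4 lay among the WT pools. Its log2 fold change was 0.55 (SE 0.173, adjusted p = 0.0299), and the call was lost without KO pool 1, 2 or 3 or WT pool 1 or 4 (adjusted p = 0.0605 to 0.0838). Slc23a2, a vitamin C carrier, averaged 184 ± 14.6 in KO and 154 ± 11.7 in WT (log2 fold change 0.25, adjusted p = 0.0207). The pools overlapped, and the call was lost without KO pool 2 or WT pool 2 or 3 (adjusted p = 0.0561 to 0.0619). Slc46a1, the proton-coupled folate carrier, averaged 1.93 ± 0.226 in KO and 1.3 ± 0.163 in WT (log2 fold change 0.35, adjusted p = 0.0484, with 0.14 at a pseudocount of 5 and 0.57 with none added). It lost its call without any 1 library (adjusted p = 0.0575 to 0.119), with the replicate block (0.0644) and at every other pseudocount tried. Slc33a1, which carries acetyl-CoA into the endoplasmic reticulum, was not called (log2 fold change -0.15, adjusted p = 0.107) except without KO pool 4 (0.0429).

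Sodium/proton exchangers and their relatives had 5 members lower and 0 higher of 11 by limma (6 lower and 0 higher at an unadjusted p under 0.05). That is 45.5% lower and 0% higher, against 20.0% and 18.7% of all genes. Slc9a2, an exchanger of the cell surface, had 8.78, 8.48, 7.04 and 7.7 in KO pools 1 to 4, against 26, 22.9, 24.6 and 19.4 in WT pools 1 to 4. The groups stood far apart, and the log2 fold change was -1.43 (SE 0.105, adjusted p = 1.01e-05), with a ratio of the means of 0.344. The gene lies on chromosome 1 from 40680574 to 40769273. Its neighbour Slc9a4, 49848 bases away, averaged 113 ± 23.1 in KO and 151 ± 27.3 in WT, a log2 fold change of -0.42 that was not called (adjusted p = 0.0619) but was with the replicate block (adjusted p = 0.000405), without KO pool 4 (0.0191) and without WT pool 3 (0.0327).

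Exchangers of internal membranes were among those that fell. Slc9a9, of recycling endosomes, had 11.1, 9.6, 9.48 and 8.8 in KO pools 1 to 4, against 18.6, 16.5, 16.1 and 13.7 in WT pools 1 to 4 (log2 fold change -0.68, SE 0.106, adjusted p = 0.000793). Slc9a7, of the trans-Golgi network, had 19.6, 22.5, 19.9 and 26.4 in KO pools 1 to 4, against 34.2, 32.5, 33.4 and 39.2 in WT pools 1 to 4 (log2 fold change -0.64, SE 0.102, adjusted p = 0.000935). In both genes every KO pool lay below every WT pool. Of the 8 listed exchangers of Slc9, 4 fell, 0 rose by limma (5 and 0 at an unadjusted p under 0.05) and 8 had a negative fold change. In the fit without KO pool 4, Slc9a8 turned positive (0.08, not called). Slc4a2, a chloride/bicarbonate exchanger, averaged 55.6 ± 2.4 in KO and 67.2 ± 4.49 in WT (log2 fold change -0.27, adjusted p = 0.00776), and 13.7% of its exon length is shared with Fastk on the other strand. Slc4a7, a sodium/bicarbonate carrier, was not called (log2 fold change 0.11), but it was called higher without KO pool 4 (adjusted p = 0.044) or without pool 4 of both groups. The 6 members of this class not called ranged from -0.42 to 0.11. Slc9a3r1, a scaffold that binds such exchangers, averaged 44.7 ± 9.15 in KO and 63.9 ± 7.2 in WT (log2 fold change -0.52, adjusted p = 0.0124), and the other adaptors were not called.

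Of 16 tested partners in pH and chloride handling, 7 rose (43.8%) and 4 fell (25%), against 18.7% and 20.0% of all genes. Ahcyl1, a regulator of bicarbonate carriers, averaged 215 in KO and 95.9 in WT (log2 fold change 1.14), and its relative Ahcyl2 65.3 in KO and 39.1 in WT (0.73). Clcn7, a lysosomal chloride/proton exchanger, averaged 170.1 in KO and 109 in WT (0.63), and Oxsr1, a kinase that controls chloride cotransporters, 89.6 in KO and 123 in WT (-0.45). Among those cotransporters, Slc12a7, which exports potassium with chloride, averaged 127 ± 11.8 in KO and 149 ± 0.537 in WT (log2 fold change -0.23, adjusted p = 0.0195), a call lost without KO pool 1 or 3 (adjusted p = 0.0505 to 0.0549). Slc8a1, the sodium/calcium exchanger of the cell surface, averaged 65 ± 3.93 in KO and 56.9 ± 3.55 in WT (log2 fold change 0.19, adjusted p = 0.0454). That call was lost without KO pool 1, 2 or 3 or WT pool 1, 2 or 4 (adjusted p = 0.0511 to 0.124). The 5 carriers of these ions that were not called had log2 fold changes of -0.13 to 0.26. The mitochondrial Slc8b1 was among them (89 ± 9.33 in KO and 92.9 ± 8.55 in WT).

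**Figure D3:**
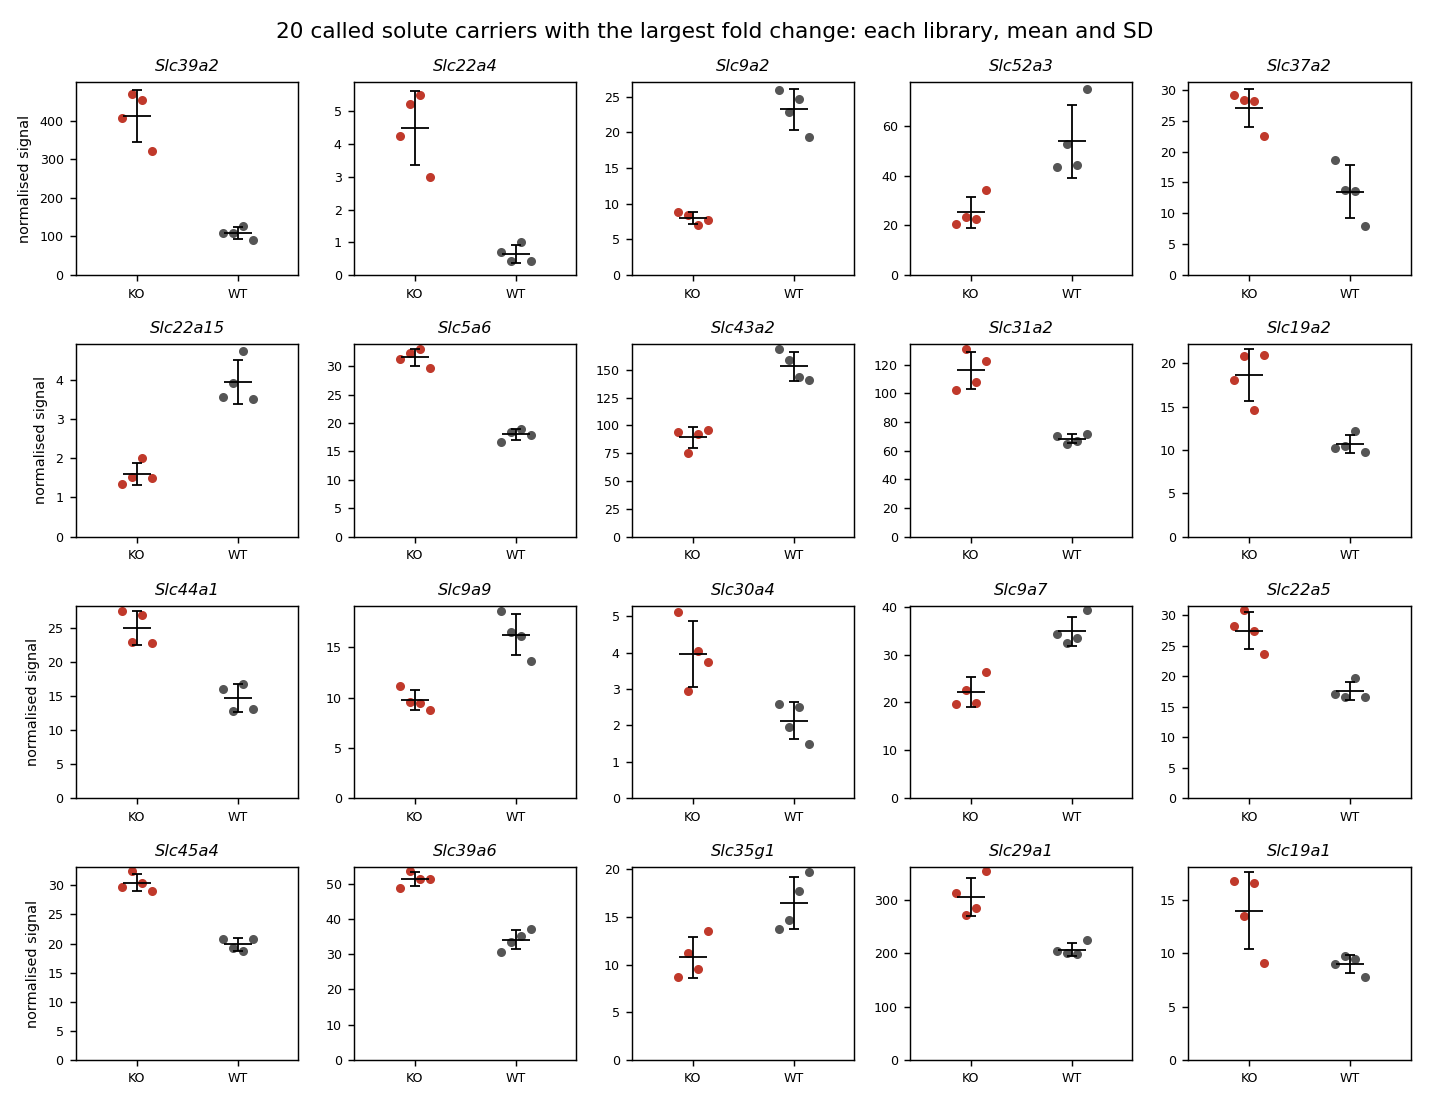
Normalised signal of the 20 called carriers with the largest fold changes, 1 panel a gene, with KO pools left of WT pools; points are pools, and lines are the group mean with its SD over 4 pools. The pools of KO and WT stand apart in 19 panels, and in the panel of Slc19a1 KO pool 4 lies among the WT pools.

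Among organic cation and carnitine carriers, 2 of 10 rose (20%) and 1 fell (10%), against 18.7% and 20.0% of all genes. Slc22a4, the carrier of the antioxidant ergothioneine, was near the low end of the table in WT. It had 4.24, 5.22, 5.51 and 3.01 in KO pools 1 to 4, against 0.69, 0.42, 1.01 and 0.416 in WT pools 1 to 4. Every WT pool was above the floor of 3 reads, and the lowest KO pool was well above the highest WT pool. The ratio of the means was 7.09 and the log2 fold change 1.74 (SE 0.188, adjusted p = 8.7e-05), which depends on the pseudocount (0.75 at 5 and 2.89 with none added). The gene passed the filter on low values through its KO pools, since 1 WT pool reached a value of 1, and the fit with no filter gave the same adjusted p (8.7e-05). Slc22a5, the carnitine importer, had 28.1, 30.8, 27.3 and 23.6 in KO pools 1 to 4, against 17.1, 16.6, 19.7 and 16.6 in WT pools 1 to 4 (log2 fold change 0.62, SE 0.0926, adjusted p = 0.000625). Its KO pools were all above its WT pools.

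Slc22a21, a carnitine carrier of the mouse, lies between these genes on chromosome 11, 58304 bases from Slc22a5 and 2790 from Slc22a4. Slc22a21 averaged 1.59 ± 0.6 in KO and 1.56 ± 0.359 in WT and was not called (log2 fold change -0.00). The 3 genes are similar in sequence, and how reads common to them were split is not given in the sources used here. Slc22a15, an organic ion carrier, had 1.35, 1.51, 2.01 and 1.49 in KO pools 1 to 4, against 3.57, 3.93, 4.74 and 3.52 in WT pools 1 to 4. No KO pool reached a WT pool (log2 fold change -0.93, SE 0.131, adjusted p = 0.00041, with -0.44 at a pseudocount of 5 and -1.31 with none added). The 7 not called ranged from -0.07 to 0.57 in log2 fold change. Of these, Slc13a3, a sodium-coupled dicarboxylate carrier, had a log2 fold change of 0.57 and was called with the replicate block (adjusted p = 0.00937), without KO pool 2 (0.0268) and without WT pool 4 (0.045).

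Among carriers of choline and fatty acids, 1 of 5 rose (20%, against 18.7% of all genes). Slc44a1, a choline carrier, had 27.5, 23, 26.9 and 22.9 in KO pools 1 to 4, against 16.1, 12.9, 16.8 and 13.1 in WT pools 1 to 4. All KO pools were above all WT pools, and pools 1 and 3 were the higher in each genotype (log2 fold change 0.73, SE 0.107, adjusted p = 0.000541). Its relative Slc44a2 averaged 83 ± 12 in KO and 71.2 ± 15.9 in WT, and pool 4 was the lowest in both. It was not called (log2 fold change 0.24) except with the replicate block (adjusted p = 0.0135) and without pool 4 of both groups. Slc27a3, of the fatty acid transport proteins, was called with the block (log2 fold change 0.54, adjusted p = 0.0466) and without KO pool 2 (0.026). The 4 carriers not called ranged from -0.08 to 0.54. Of 21 partners in vitamin, choline and fatty acid use, 5 rose (23.8%) and 6 fell (28.6%), against 18.7% and 20.0% of all genes. Cpt1a, which makes acylcarnitine at the mitochondrion, averaged 356 in KO and 524 in WT (log2 fold change -0.56). The acyl-CoA synthetase Acsl3 averaged 16.5 in KO and 9.48 in WT (0.74), its relative Acsl1 119.7 in KO and 164 in WT (-0.44), and the choline kinase Chkb 33.1 in KO and 43.8 in WT (-0.39).

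Of the 7 carriers of sugars, sugar phosphates and polyols, 2 rose (28.6%) and 1 fell (14.3%), against 18.7% and 20.0% of all genes. Slc37a2, a sugar phosphate exchanger of the endoplasmic reticulum, had 29.1, 28.4, 28.2 and 22.4 in KO pools 1 to 4, against 18.6, 13.7, 13.6 and 8.01 in WT pools 1 to 4. Pool 4 was the lowest in both genotypes, and the groups did not overlap (log2 fold change 0.998, SE 0.204, adjusted p = 0.00374). Slc45a4, of a family of proton-coupled sugar carriers, had 29.8, 32.4, 30.4 and 29.1 in KO pools 1 to 4, against 20.8, 19.2, 18.7 and 20.7 in WT pools 1 to 4 (log2 fold change 0.59, SE 0.0652, adjusted p = 9.59e-05). The pools of each genotype lay close together. Slc37a1 averaged 12 ± 0.634 in KO and 14.1 ± 0.597 in WT (log2 fold change -0.21, adjusted p = 0.0423), a call lost without any 1 library (adjusted p = 0.0567 to 0.107) and under quantile normalisation (0.0669) and median centring (0.0632). The 4 not called ranged from -0.13 to 0.60. The highest of them, Slc5a3, which imports myo-inositol, had a log2 fold change of 0.60 that was not called (32.5 ± 11.1 in KO and 21.2 ± 8 in WT, adjusted p = 0.0933). It was called with the replicate block (adjusted p = 0.00077) and without WT pool 4 (log2 fold change 0.83, adjusted p = 0.0133).

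Slc29a1, the nucleoside carrier of the cell surface, was the 1 of 5 nucleoside and nucleobase carriers that rose (20%, against 18.7% of all genes). It had 312, 272, 284 and 353 in KO pools 1 to 4, against 203, 201, 198 and 225 in WT pools 1 to 4. Pool 4 was the highest in both genotypes and every KO pool lay above WT (log2 fold change 0.56, SE 0.083, adjusted p = 0.000607). Its lysosomal relative Slc29a3 averaged 34.6 ± 3.31 in KO and 33.5 ± 1.7 in WT and was not called. The 4 not called ranged from -0.17 to 0.19. The purine carrier Slc43a3 had a log2 fold change of 0.19 and was called with the replicate block alone (adjusted p = 0.0466).

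Of 13 carriers that bring nucleotide sugars or nucleotides into the Golgi and endoplasmic reticulum, 4 fell and 0 rose by limma (4 and 3 at an unadjusted p under 0.05). The shares called were 30.8% lower and 0% higher, against 20.0% and 18.7% of all genes. Slc35b4, for UDP-xylose and UDP-N-acetylglucosamine, averaged 73.3 ± 2.92 in KO and 93.1 ± 2.12 in WT (log2 fold change -0.34, adjusted p = 0.000443). Slc35c1, for GDP-fucose, averaged 41.2 ± 1.5 in KO and 52.1 ± 3.67 in WT (log2 fold change -0.33, adjusted p = 0.00275). In both genes the groups stood apart. Slc35d2 averaged 5.72 ± 1.04 in KO and 7.96 ± 1.05 in WT (log2 fold change -0.42, adjusted p = 0.0341), a call lost without KO pool 2 or 4 or WT pool 1, 2 or 3 (adjusted p = 0.0542 to 0.0933). Slc35a1, for CMP-sialic acid, averaged 23.2 ± 1.63 in KO and 26.9 ± 1.14 in WT (log2 fold change -0.21, adjusted p = 0.0371). It lost its call without any 1 library other than KO pool 4 (adjusted p = 0.0531 to 0.0997), and under quantile normalisation (0.0551) and median centring (0.0572).

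The other 9 of these carriers had log2 fold changes of -0.07 to 0.17, among them Slc35a3 (109 ± 6.79 in KO and 103 ± 7.12 in WT). Slc35b1, Slc35c2 and Slc35a5 had changes of 0.17, 0.13 and 0.17 and were not called. The replicate block called Slc35c2 (adjusted p = 0.0398) and Slc35a5 (adjusted p = 0.0288), and median centring called Slc35b1 (0.0388) and Slc35c2 (0.0363). Leaving out 1 library called Slc35b1 (without WT pool 4, 0.0293), Slc35c2 (without KO pool 4, 0.0347) and Slc35a5 (without WT pool 4, 0.0406). Of 7 orphan genes of the family, Slc35g1 had 8.69, 11.3, 9.53 and 13.6 in KO pools 1 to 4, against 13.7, 14.6, 17.8 and 19.7 in WT pools 1 to 4. The highest KO pool was just under the lowest WT pool (log2 fold change -0.57, SE 0.15, adjusted p = 0.0132). The 6 orphans not called ranged from -0.23 to 0.21. Slc35f6 (log2 fold change 0.21) and Slc35f5 (-0.23) were called with the block (adjusted p = 0.00771 and 0.0317), and Slc35f6 also without KO pool 4 (0.0179) and under median centring (0.0407). Of 16 tested partners in nucleoside and nucleotide sugar metabolism, 1 rose (6.25%) and 8 fell (50%), against 18.7% and 20.0% of all genes. They included Papss1, which makes the sulphate donor (41.9 in KO and 61.6 in WT, log2 fold change -0.55), and Gmds, the first enzyme of GDP-fucose synthesis (38.3 in KO and 57.2 in WT, -0.57). The nucleotide hydrolase Samhd1 (317 in KO and 415 in WT, -0.39) and the thymidine kinase Tk1 (7.87 in KO and 29.7 in WT, -1.74) fell too.

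Carriers of peptides and amino acids, mostly of lysosomes, had 1 of 7 higher (14.3%) and 2 lower (28.6%), against 18.7% and 20.0% of all genes. Slc43a2, a carrier of large neutral amino acids, had 93.8, 74.9, 92.1 and 95.9 in KO pools 1 to 4, against 169, 159, 144 and 141 in WT pools 1 to 4. Each KO pool was well below each WT pool (log2 fold change -0.77, SE 0.0899, adjusted p = 0.000133). Slc15a3, a lysosomal carrier of histidine and small peptides, averaged 279 ± 19.4 in KO and 383 ± 22.3 in WT (log2 fold change -0.46, adjusted p = 0.000403), and 28.1% of its exon length is shared with Tmem132a on the other strand. Its relative Slc15a4 had the opposite sign (63 ± 18.1 in KO and 52.7 ± 12.6 in WT, log2 fold change 0.24) and was called with the replicate block alone (adjusted p = 0.0205). Slc36a4, an amino acid carrier, averaged 294 ± 23.7 in KO and 215 ± 31.3 in WT (log2 fold change 0.46, adjusted p = 0.00723). The 4 not called ranged from -0.19 to 0.31. The highest, Slc17a5, which exports sialic acid from lysosomes, had a log2 fold change of 0.31 just outside the threshold (adjusted p = 0.0539) and was called with the block (adjusted p = 0.00354), under both other scalings, without KO pool 4 (0.0283) and without WT pool 1 (0.0187).

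None of the 6 carriers of phosphate, sulphate and other inorganic anions was called by limma, with 0 at an unadjusted p under 0.05 and log2 fold changes of -0.07 to 0.59. Over all genes, 38.7% were called. The sulphate carrier Slc26a2 averaged 47.9 ± 1.21 in KO and 50.5 ± 1.95 in WT, and the phosphate carrier Slc20a1 42.8 ± 3.91 in KO and 40.5 ± 2.8 in WT. Slc34a2, a phosphate carrier of the alveolar type 2 epithelium, had 17.8 in WT pool 3, against 3.05 to 3.89 in the other WT pools. Sftpc, the surfactant gene of those cells, had 75.9 in WT pool 3 too. The orphan Slc10a3 was not called either (log2 fold change -0.13).

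Per kilobase of merged exons, the most abundant carriers in WT were Slc15a3 (50.8 in KO and 69.8 in WT), Slc39a1 (77.0 and 67.7) and Slc29a1 (76.2 and 51.6). The lowest means were those of Slc22a15 (0.112 in KO and 0.277 in WT) and Slc22a4 (1.76 in KO and 0.248 in WT). In all, 36 carriers share exon sequence with another annotated gene. The kit keeps strand, but the counting setting for strand is not given in the sources used here.

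**Figure D4:**
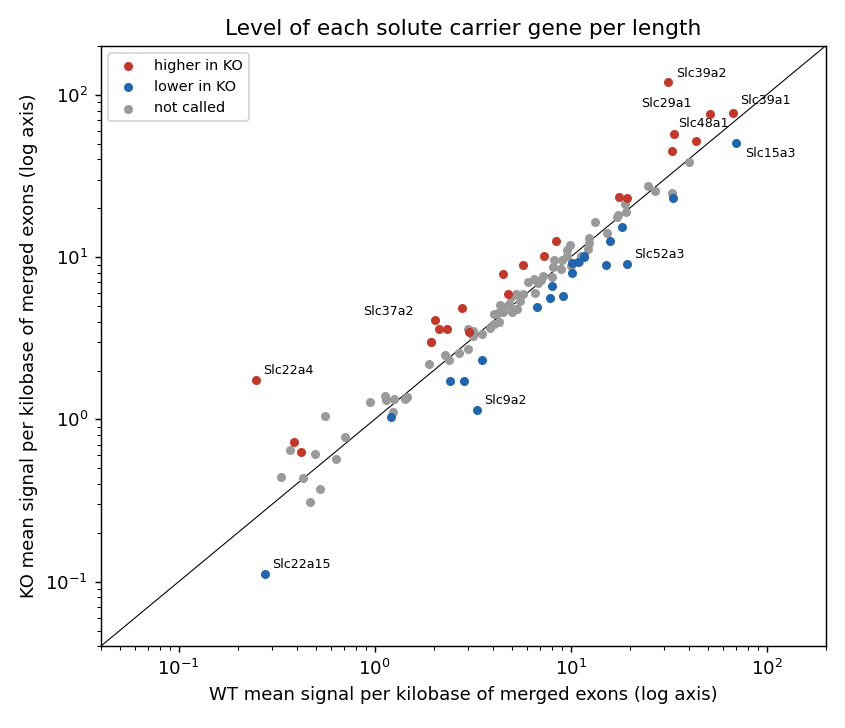
Mean signal per kilobase of merged exons in KO (vertical log axis) and in WT (horizontal log axis) for each carrier, with the line of equality. Slc39a2 (119.6 in KO and 31.6 in WT) and Slc22a4 (1.76 in KO and 0.248 in WT) lie farthest above the line, and Slc9a2 and Slc22a15 farthest below.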

How the data were processed

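Polyadenylated RNA of 8 pools (4 KO and 4 WT) was measured by RNA-seq with a kit that keeps strand, per the labels' protocols. Per the submitters' processing notes the build was GRCm38 and the tools included limma, RSEM (1.3.1), cutadapt (1.7.1) and CASAVA (1.8.2). The aligner and annotation release are not stated there. For each gene and pool the authors deposited 1 signal value that they had normalised. Read from the values and not stated by the authors, they have the form of a whole read number plus 0.5 over a scaled library size, times 1e+06, with whole reads (within 0.01) behind 100% of the values of every pool. The read numbers so inferred gave depths and floors only and entered 1 alternative as voom weights. No raw counts were used, and 0 value columns were left unused.

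Genes with a value of 1 or more in 4 or more pools were kept, 1 was added, and log2 values entered limma (3.58.1, R 4.3.3) with a variance trend. Tests were two-sided at 0.05 after Benjamini-Hochberg adjustment over all genes kept. Exact permutation tests (scipy 1.17.1) for 4 against 4 cannot go below 0.0286. The steps were tested on simulated data. Exon lengths and overlaps come from the GENCODE annotation of GRCm38 and promoters from RefSeq.

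Same-numbered pools deviated together (correlations of 0.363, 0.286, 0.394 and 0.431, against -0.374 to 0.0917 for other pairs). What a number stands for is not in the labels. It is therefore the data that give the pairing, and the replicate block is given beside results whose call it changes.

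The carriers, cargo classes, partner lists, marker lists and motifs were chosen with earlier results of these data known. Values per pool are given for the 20 called carriers with the largest absolute log2 fold change and a mean of at least 2. Called carriers are named up to 6 per class, up to 3 uncalled ones by level, and up to 4 partners per list by p. Carriers called only by the block, a changed setting or as neighbours, with the mitochondrial Slc8b1 and Slc30a9, were named after their values were seen. So were the partners Blvra and Mt1. Some genes are counted in the totals but left out by name and from the search for pools that lie far from their group.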

Additional observations from a re-analysis of the deposited data

Results flagged for a closer look

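A pool far from the other 3 of its genotype was found in 18 of 228 groups of 4 values (7.89%), where chance gives about 5%. These carriers each had 1 pool whose gap to the nearest other pool took up most of the range. Pool 4 of a genotype accounted for many of them. Below the other KO pools lay Slc35c2 in KO pool 4 (100.9, the other KO pools 108 to 109), Slc37a2 in KO pool 4 (22.4, the other KO pools 28.2 to 29.1), Slc44a2 in KO pool 4 (65, the other KO pools 88.2 to 89.6), Slc4a7 in KO pool 4 (29.9, the other KO pools 39.4 to 40.7) and Slc50a1 in KO pool 4 (14.3, the other KO pools 20.3 to 21.5). Above the other WT pools lay Slc15a4 in WT pool 4 (71.5, the other WT pools 45.2 to 47), Slc35e3 in WT pool 4 (19, the other WT pools 13.6 to 14), Slc41a1 in WT pool 4 (47, the other WT pools 34.8 to 36.7), Slc4a11 in WT pool 4 (3.85, the other WT pools 1.66 to 1.96) and Slc52a2 in WT pool 4 (15.7, the other WT pools 14.4 to 14.5). Below the other WT pools lay Slc35a4 in WT pool 4 (51.8, the other WT pools 65.7 to 67.6) and Slc44a2 in WT pool 4 (47.5, the other WT pools 76.5 to 80.3). Outside pool 4, high values were those of Slc22a18 in WT pool 1 (11.1, the other WT pools 9.92 to 10.1), Slc34a2 in WT pool 3 (17.8, the other WT pools 3.05 to 3.89), Slc35b3 in WT pool 3 (42.1, the other WT pools 38.5 to 39.1), Slc39a8 in KO pool 3 (12.4, the other KO pools 9.35 to 9.38) and Slc41a2 in WT pool 3 (8.55, the other WT pools 5.9 to 6.15), and a low value was that of Slc39a3 in WT pool 1 (17.6, the other WT pools 17.9 to 18). Slc44a2 was low in pool 4 of both genotypes. Slc37a2 and Slc41a1 are among the carriers called, and in each the KO and WT pools did not overlap. In WT pool 3, where Slc34a2 was high, Sftpc was 75.9, against 20.2 in WT pool 2 and 15.6 in WT pool 4, and KO pool 3 had 61.4. Markers of other cells were high in WT pool 3 too. The endothelial Cdh5 was 32.2 there, against 5.81 to 7.47 in the other WT pools. The fibroblast gene Col3a1 was 19.7, against 4.08 to 7.08. The part of epithelial RNA in the value of Slc34a2, and of RNA of these other cells in WT pool 3, was not tested.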

How the results depend on the processing

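The main counts were 22 carriers higher and 21 lower. At an adjusted p under 0.01 they were 15 and 12, and with a change of at least 1 log2 unit 2 and 2. Leaving out each library in turn gave 18 to 26 higher and 17 to 22 lower. Leaving out pool 4 of both groups, an alternative chosen after seeing the data, gave 29 and 20. Quantile normalisation gave 25 and 19, median centring 27 and 18, and the replicate block 31 and 23. Of 898 repeats of single calls, 773 kept their side of the threshold, 125 lost it and 0 changed sign. The losses include 16 at an adjusted p under 0.01 and 39 at a change of at least 1 log2 unit, which are stricter thresholds on the same fit. Median centring moved the median of all genes to 0.02. The replicate block, beyond the calls named above, ended 1 call (Slc46a1) and changed no other. No call of a nucleotide sugar carrier was higher as reported, but 2 were under median centring and under the block. A count test (edgeR) was planned and not run, since the deposited values are normalised and the read numbers behind them are only inferred. Voom weights on those inferred read numbers gave 22 higher and 21 lower, the same 43 calls as the main fit. The lowest carriers depended on the pseudocount: the log2 fold change ran from 0.75 to 2.92 for Slc22a4, from -1.32 to -0.44 for Slc22a15, from 0.33 to 0.90 for Slc30a4 and from 0.14 to 0.57 for Slc46a1 across the settings, and the pseudocount gave the end nearest to 0. The floor of 3 reads lay below every pool of these carriers.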
